A study of Homo sapiens with 6 samples.

Results

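The genes described here are 9 components of the epithelial tight junction: the claudins CLDN1, CLDN3, CLDN4, CLDN7 and CLDN12, occludin (OCLN), the scaffold proteins TJP1 and TJP3, and the adhesion molecule F11R. They were taken by symbol from an array of 34558 rows, each row a RefSeq transcript with a gene symbol. All 9 were present, with 17 rows in all, among 19148 genes. CLDN1, CLDN3, CLDN4 and F11R had 1 row each, TJP1 and TJP3 had 2, and CLDN7, CLDN12 and OCLN had 3. The names were chosen for their place in the junction, not for their readings, although earlier results of these data were known.

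Total RNA came from 6 samples of KYSE30, a human oesophageal squamous carcinoma line, each hybridised to its own array. RNA was measured in bulk, so fewer cells with a transcript and less transcript per cell cannot be told apart. Samples 1 to 3 were transfected with a control siRNA and samples 4 to 6 with 1 siRNA against MTA2, a subunit of the NuRD deacetylase complex, in both cases at 20 nmol/ml for 48 h with Lipofectamine. The labels do not state that samples of a group were separate cultures, so each p-value reflects the spread among these samples, which may be technical. The labels name Cy3 for samples 1, 3 and 5 and Cy5 for samples 2, 4 and 6, so each group holds both dyes in unequal numbers, and only 1 siRNA sequence stands for MTA2. The 4 strands are shown because they define the groups, with capitals for the seed (bases 2 to 8) of each antisense strand.
MTA2 siRNA sense: ggugggagauuacgucuautt
MTA2 siRNA antisense: aUAGACGUaaucucccacctt
control siRNA sense: uucuccgaacgugucacgutt
control siRNA antisense: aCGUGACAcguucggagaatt

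Tight junctions seal the space between neighbouring epithelial cells and separate the apical from the basolateral membrane. Claudins form the sealing strands and set which ions and solutes pass, while occludin and F11R (JAM-A) lie beside them in the membrane. TJP1 (ZO-1) and TJP3 (ZO-3) are cytoplasmic scaffolds that tie these membrane proteins to the actin cytoskeleton. Loss of junction proteins is a common mark of epithelial-mesenchymal transition, and stratified squamous epithelium of the oesophagus keeps several claudins across its layers.

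MTA2 itself showed no lower reading in samples 4 to 6. Its row read 12.92, 13.13 and 13.004 on the log2 scale in control samples 1 to 3, and 13.12, 13.18 and 13.52 in samples 4 to 6. The groups overlapped, with a difference of 0.26 (SE 0.17, limma adjusted p = 0.943). The samples are therefore called by their labels, and every direction below is that of the samples as labelled. The squamous markers did not stand out by intensity either: 8 of 10 lay above the median gene, as did 6 of 6 endothelial, 3 of 6 leukocyte and 1 of 6 hepatocyte markers. None of the listed markers was at 0. Per-sample means of the squamous list ran from 11.72 to 11.79 in the controls and from 11.72 to 11.92 in samples 4 to 6. The endothelial means ran from 12.69 to 12.77 and from 12.71 to 12.80, the leukocyte means from 10.87 to 10.98 and from 10.79 to 11.01, and the hepatocyte means from 9.95 to 10.23 and from 9.78 to 9.95. Their part in the values below was not tested.

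None of the 9 tight junction genes passed the test between the siRNA groups, and neither did any other gene. Of the 9 genes, 0 were called by limma at an adjusted p of 0.05, against 0% of all 19148 genes, and their adjusted p-values lay between 0.943 and 0.995. At an unadjusted p of 0.05, 1 gene passed (CLDN1), against 3.75% of all genes. With dye as a block 0 genes passed the adjusted threshold, again 0% of all genes, and 2 passed without adjustment (CLDN1 and CLDN3), against 4.95% of all genes. Differences, given as labelled MTA2 siRNA minus control on the log2 scale, were above 0 for 5 genes and below 0 for 4, and 45.5% of all genes were below 0. Their median was 0.022, beside 0.029 over all genes. The junction genes therefore had no common direction.

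The groups did not overlap for 3 of the 9 genes (33.3%), CLDN1 and TJP1 with higher and CLDN7 with lower readings in the samples labelled MTA2 siRNA. Over all genes this held for 9.43%. Among single rows it held for 1 of 17 (5.88%), the CLDN1 row, against 8.83% of all rows. The separation of TJP1 and CLDN7 therefore appeared in the mean of their rows and in no row alone. The exact permutation test gave p = 0.10 for each of these 3 genes, two-sided, the smallest that 3 against 3 samples allow.

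**Figure D1:**
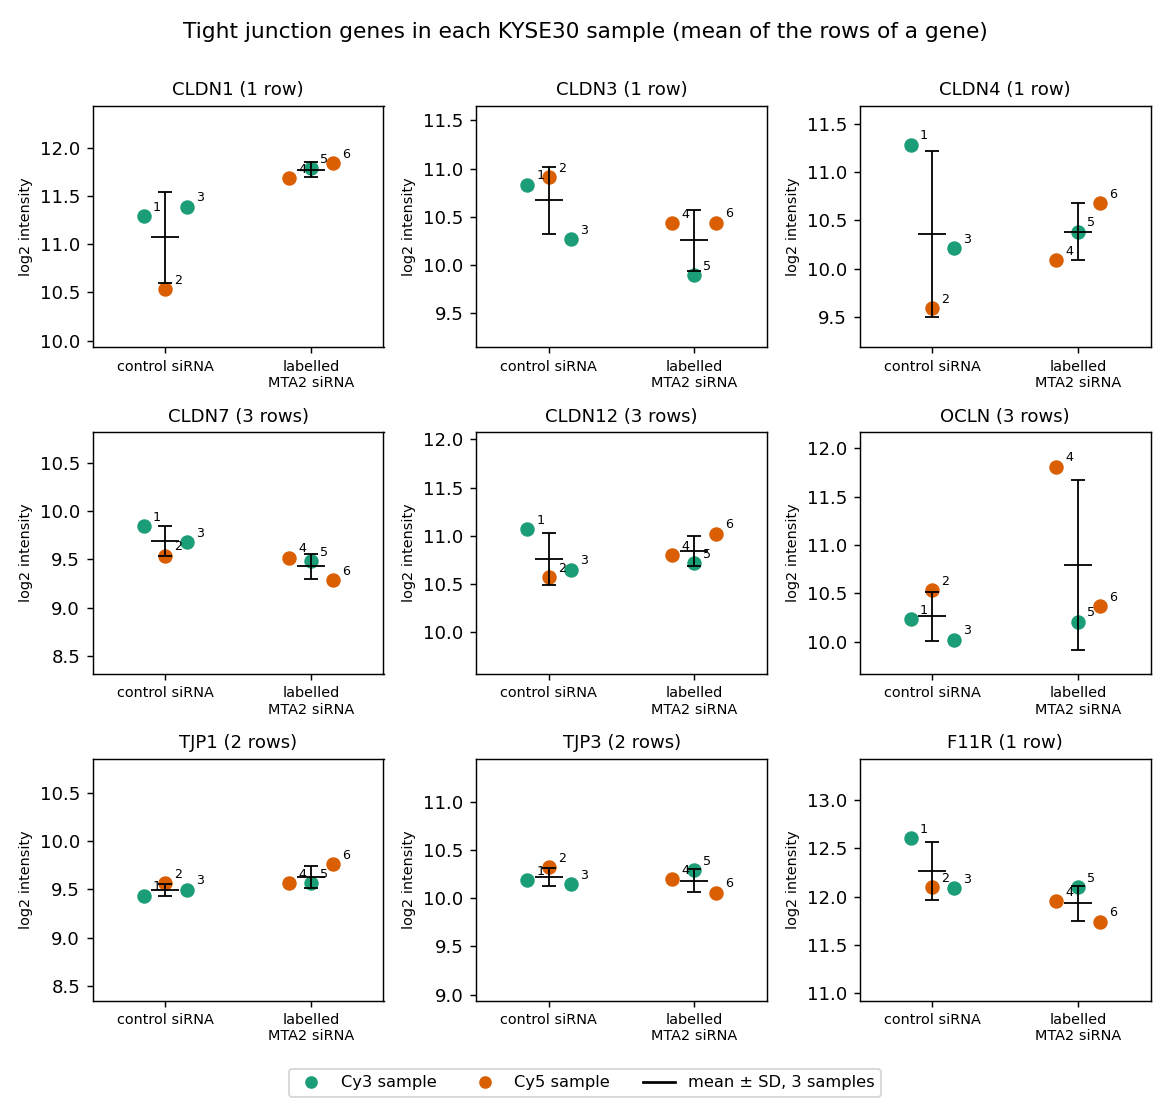
Log2 intensity of each of the 9 genes (y axis, each panel spanning the same range) in control samples 1 to 3 and in samples 4 to 6, labelled MTA2 siRNA. Points are samples, coloured by dye, and bars are mean ± SD over 3 samples. For CLDN1 the samples labelled MTA2 siRNA sit between 11.68 and 11.84, above all controls, and for OCLN sample 4 sits apart at 11.81.

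CLDN1, a barrier-forming claudin of skin and other squamous epithelia and a cofactor of hepatitis C virus entry, showed the largest difference of the 9 genes in size. Its row read 11.29, 10.53 and 11.39 in control samples 1 to 3. It read 11.68, 11.79 and 11.84 in samples 4 to 6. All samples labelled MTA2 siRNA lay above all controls, and the widest gap was that of control sample 2, below the other controls. The means were 11.07 ± 0.47 (SD, n = 3) and 11.77 ± 0.078 (SD, n = 3). The difference of 0.70 (SE 0.25, limma adjusted p = 0.943) is 1.62-fold, with a 95% interval from 1.08-fold to 2.44-fold before adjustment. By unadjusted p the gene ranked 303 of 19148. In the fit with dye as a block it was 0.84 (SE 0.21, limma adjusted p = 0.874). It was 0.45 within the Cy3 samples and 1.23 within the Cy5 samples, where control sample 2 is the only control. Without control sample 2 it was 0.43. CLDN1 thus read higher in both dyes, by an amount that depended on 1 control.

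CLDN3 and CLDN4, claudins that bind the Clostridium perfringens enterotoxin, lie next to each other among the protein-coding genes of chromosome 7. CLDN3 read 10.83, 10.91 and 10.27 in the controls and 10.44, 9.89 and 10.44 in samples 4 to 6. The groups overlapped through control sample 3. The means were 10.67 ± 0.35 and 10.26 ± 0.31 (SD, n = 3 each). It differed by -0.41 (SE 0.25, limma adjusted p = 0.943), with an interval from 0.501-fold to 1.13-fold. It was -0.56 with dye as a block (SE 0.20, limma adjusted p = 0.874), -0.66 within Cy3 and -0.47 within Cy5. CLDN3 kept its sign in both dyes, and the value nearest 0 with 1 sample left out was -0.23, without sample 5.

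CLDN4 varied more among the controls than between the groups. Its row read 11.29, 9.59 and 10.21 in control samples 1 to 3 and 10.09, 10.38 and 10.68 in samples 4 to 6. Control samples 1 and 2 were the highest and the lowest of all 6. It differed by 0.022 (SE 0.42, limma adjusted p = 0.995), and its interval, -0.97 to 1.01, spans about a 2-fold change either way. It was -0.36 within Cy3 and 0.79 within Cy5, and 0.21 with dye as a block. It turned to -0.36 without control sample 2, -0.054 without control sample 3 and -0.13 without sample 6. No direction can be given for CLDN4.

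CLDN7, a largely basolateral claudin that forms a complex with the adhesion protein EPCAM, read lower in samples 4 to 6. The mean of its rows was 9.84, 9.54 and 9.68 in the controls and 9.52, 9.48 and 9.28 in samples 4 to 6. The groups did not overlap, but control sample 2 and sample 4 were nearly equal. The difference was -0.26 (SE 0.16, limma adjusted p = 0.943), or 0.836-fold, with an interval from 0.639-fold to 1.09-fold. It was -0.28 within Cy3, -0.14 within Cy5 and -0.21 with dye as a block. The 3 rows differed by -0.49, -0.16 and -0.12. The widest of these, NM_001185022, read 9.82, 9.29 and 10.05 in the controls and 9.30, 9.92 and 8.46 in samples 4 to 6, and by dye it was -0.84 in Cy5 against Cy3. That row was high in all Cy3 samples and low in all Cy5 samples, whichever siRNA they had received.

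CLDN12, a claudin that lacks the usual C-terminal PDZ-binding motif and has been tied to calcium transport, showed no settled direction. Its rows averaged 11.07, 10.57 and 10.65 in the controls and 10.80, 10.72 and 11.02 in samples 4 to 6. Control sample 1 was the highest and control sample 2 the lowest. It differed by 0.082 (SE 0.19, limma adjusted p = 0.962), with an interval from 0.770-fold to 1.45-fold. It was -0.14 within Cy3, 0.34 within Cy5 and 0.099 with dye as a block, and it was -0.015 without control sample 2 and -0.0051 without sample 6. Rows NM_001185072 and NM_012129 differed by -0.11 and -0.049. Row NM_001185073 differed by 0.40, from control readings of 10.90, 9.55 and 10.64 against 10.67, 10.68 and 10.96. The low reading of control sample 2 in that row set it apart from the other rows.

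OCLN, a 4-span protein of the MARVEL family, gave rows that pointed in opposite directions. The row NM_001205254 read 11.67, 11.22 and 11.40 in the controls and 10.94, 11.52 and 10.99 in samples 4 to 6. The row NM_001205255 read 11.48, 10.83 and 11.09 in the controls and 10.72, 10.87 and 10.74 in samples 4 to 6. In both, samples 4 and 6 were the lowest and sample 5 lay among the controls. These rows differed by -0.28 (SE 0.24) and -0.36 (SE 0.22), with limma adjusted p = 0.967 for each over all rows. They were -0.018 and -0.41 within Cy3 and -0.25 and -0.11 within Cy5.

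The row NM_002538 of OCLN read 7.56, 9.54 and 7.57 in the controls and 13.77, 8.23 and 9.37 in samples 4 to 6. Sample 4 stood 4.23 above the next sample, and among the other 5 the Cy5 samples lay above the Cy3 samples. A gap of at least that size above the other samples occurred in 3 of 34558 rows, 1 each led by samples 3, 4 and 6. The row led by sample 4 is this row itself. This row differed by 2.23 (SE 1.36, limma adjusted p = 0.967), and its interval ran from -0.96 to 5.43. The RefSeq table also lists a transcribed pseudogene, OCLNP1, on the chromosome of OCLN, and the sequences of the array features were not used here, so what this row binds was not tested.

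**Figure D2:**
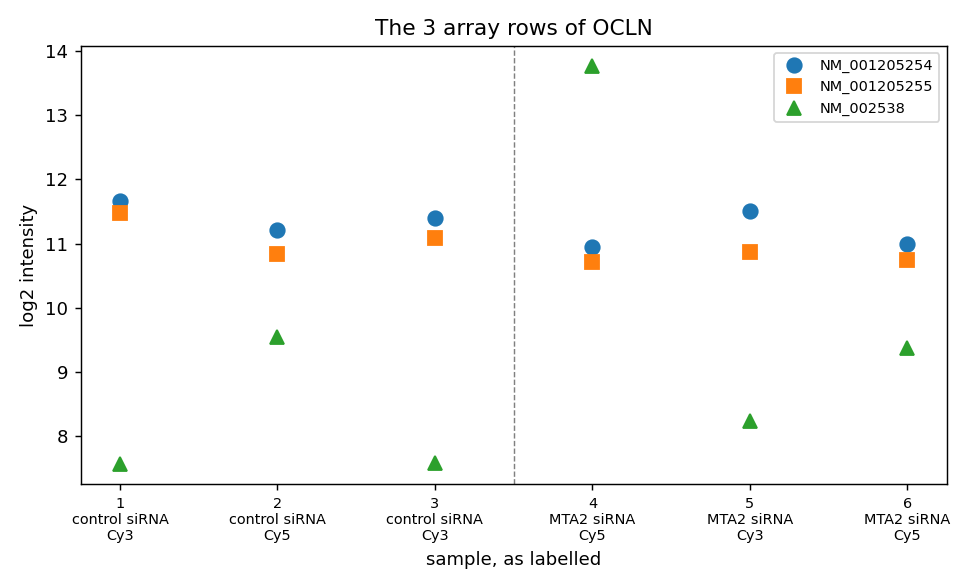
Log2 intensity (y axis) of the 3 OCLN rows in samples 1 to 6 (x axis, with siRNA and dye as labelled). The rows NM_001205254 and NM_001205255 stay between 10.72 and 11.67, and the row NM_002538 runs from 7.56 to 13.77, with sample 4 highest.

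The OCLN mean followed its widest row. It was 10.23, 10.53 and 10.02 in the controls and 11.81, 10.21 and 10.37 in samples 4 to 6. The groups differed by 0.53 (SE 0.42, limma adjusted p = 0.943), by 0.32 with dye as a block, 0.080 within Cy3 and 0.56 within Cy5. It was 0.025 without sample 4. The mean of the other rows alone, an alternative chosen after the values were seen, was 11.28 ± 0.27 in the controls and 10.96 ± 0.20 in samples 4 to 6 (SD, n = 3 each), a difference of -0.32 (limma adjusted p = 0.943). The spread of differences over the rows of OCLN, 2.59, was larger than that of 99.2% of the 7440 genes with several rows, whose median was 0.37. The spreads of CLDN12 (0.51), CLDN7 (0.37), TJP3 (0.36) and TJP1 (0.11) lay between the 13.5th and 65.8th percentile of those genes.

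TJP1 (ZO-1), which binds claudins, occludin and F11R through separate domains, had the smallest standard error of the 9 genes. Its rows averaged 9.44, 9.56 and 9.50 in the controls and 9.57, 9.57 and 9.76 in samples 4 to 6. The samples labelled MTA2 siRNA lay above the controls, samples 4 and 5 only just above control sample 2. The difference was 0.13 (SE 0.15, limma adjusted p = 0.943), and the interval, from 0.859-fold to 1.40-fold, leaves out a 2-fold change. It was 0.10 within Cy3, 0.10 within Cy5 and 0.068 without sample 6. The rows NM_003257 and NM_175610 differed by 0.080 and 0.19, so both had the sign of the mean.

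TJP3 (ZO-3), a related scaffold found mainly in epithelial cells, did not separate the groups. Its rows averaged 10.18, 10.32 and 10.14 in the controls and 10.19, 10.29 and 10.06 in samples 4 to 6. The readings of the groups were interleaved. It differed by -0.035 (SE 0.15, limma adjusted p = 0.981), with an interval from 0.759-fold to 1.26-fold. It was 0.13 within Cy3 and -0.20 within Cy5, 0.018 without control sample 2 and 0.027 without sample 6. Its rows differed by -0.22 and 0.15 and thus had opposite signs.

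F11R, the junctional adhesion molecule JAM-A, an immunoglobulin-type protein that takes part in early junction assembly and polarity, read 12.61, 12.10 and 12.08 in the controls and 11.95, 12.10 and 11.74 in samples 4 to 6. Sample 5 lay within the range of the controls, and control sample 1 stood above the rest. The difference was -0.33 (SE 0.21, limma adjusted p = 0.943), or 0.793-fold, with an interval from 0.567-fold to 1.11-fold. It was -0.25 within Cy3, within Cy5 and with dye as a block, and -0.16 without control sample 1. F11R kept its sign in each of these fits.

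**Figure D3:**
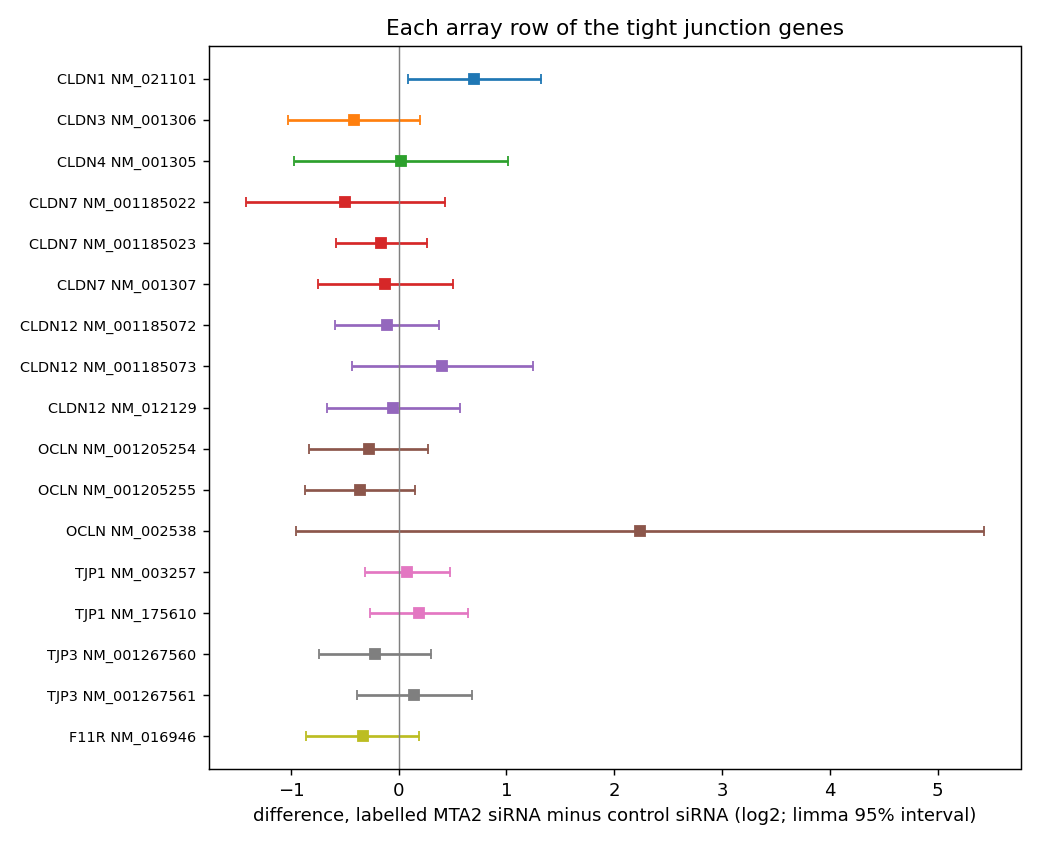
Difference between the groups (x axis, log2, labelled MTA2 siRNA minus control) for each of the 17 rows, with limma's unadjusted 95% interval; colours mark genes. The intervals of 16 rows include 0, that of CLDN1 runs from 0.084 to 1.32, and the OCLN row NM_002538 has the widest.

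At the level of rows, 10 of 17 differed by less than 0 and 7 by more than 0. Of the 17 rows, 0 passed an adjusted p of 0.05 in limma over all 34558 rows, against 0% of all rows. At an unadjusted p of 0.05, 1 row passed (CLDN1), against 3.67% of all rows. In the fit by gene, the 95% interval left out a 2-fold change, up or down, for 6 of the 9 genes and for 78.9% of all genes. CLDN3 was among the 6 by a narrow margin: its interval reached -0.997 by gene and -1.02 by row. The 3 genes with wider intervals were CLDN1, CLDN4 and OCLN.

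The dyes were split unevenly between the groups. In a limma fit with both terms, 0 of the 9 genes differed by dye at an adjusted p of 0.05, against 0.345% of all genes. At an unadjusted p of 0.05, 0 of the 9 genes passed, and the share of all genes was not taken. Single rows that passed without adjustment were NM_001185022 of CLDN7 (-0.84, limma adjusted p = 0.236) and NM_001205254 of OCLN (-0.43, limma adjusted p = 0.286). The share of all rows was not taken either, so these rows are a description only. The dye differences with the largest size, Cy5 minus Cy3, were 0.64 for OCLN (SE 0.41), -0.58 for CLDN4 (SE 0.42), 0.45 for CLDN3 (SE 0.20) and -0.42 for CLDN1 (SE 0.21). The other 5 genes lay between -0.25 and 0.096. Within-dye differences between the siRNA groups had opposite signs for 3 of the 9 genes (33.3%), CLDN4, CLDN12 and TJP3, and for 45.3% of all genes. With dye as a block all 9 genes kept the sign that they had without it. The part of dye in the differences themselves was not tested further, since each within-dye comparison has a lone sample in 1 group.

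**Figure D4:**
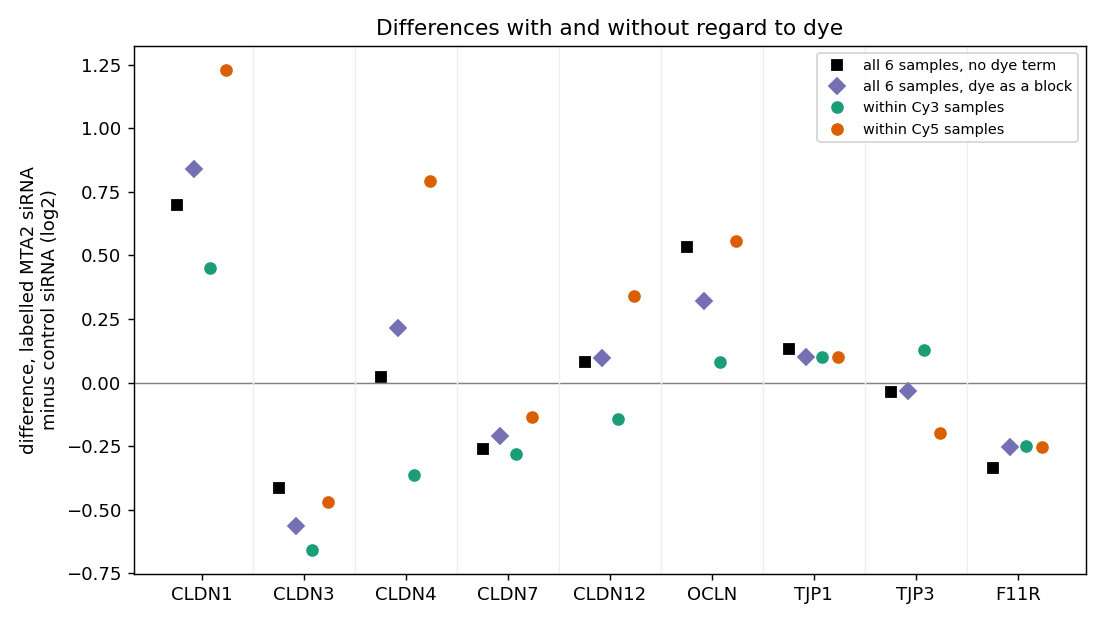
Difference between the groups (y axis, log2) for each gene (x axis) in all 6 samples without a dye term, with dye as a block, within Cy3 (samples 1 and 3 against 5) and within Cy5 (sample 2 against 4 and 6). CLDN1, OCLN and TJP1 are above 0 and CLDN3, CLDN7 and F11R are below 0 in all of them. CLDN4, CLDN12 and TJP3 lie on both sides of 0.

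The 9 genes did not vary together over the 6 samples. Pearson's r between pairs of genes, a description over samples that share dye and array processing, was above 0 for 21 of 36 pairs and had a median of 0.063. The highest were 0.92 for CLDN7 with F11R and 0.89 for CLDN4 with CLDN12, and the lowest were -0.96 for CLDN7 with TJP1 and -0.87 for TJP1 with F11R. Among 9411 other genes above the median level, the closest profile was that of ZC4H2 for CLDN1 (r = 0.995), ATP1B3 for CLDN3 (r = 0.990) and MYL12B for CLDN4 (r = 0.979). It was ZNF573 for CLDN7 (r = 0.987), PCDHGB3 for CLDN12 (r = 0.982), HACD3 for OCLN (r = 0.986), MYO1A for TJP3 (r = 0.983) and GSG1 for F11R (r = 0.992). For TJP1 it was MTA2 (r = 0.994, n = 6 samples). Each of these is the highest r among 9411 candidates over 6 samples, so a high value says little by itself. Between 5 and 47 of the candidates exceeded 0.95 for each junction gene.

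The other claudins also gave no calls. Of 16 measured, 0 passed, 7 were higher and 9 lower, with a median difference of -0.062 beside 0.029 over all genes. CLDN18, the claudin of gastric and lung epithelium, read 9.38, 9.19 and 9.20 in the controls. It read 8.76, 9.01 and 8.47 in samples 4 to 6. Its difference was -0.51 (SE 0.19, limma adjusted p = 0.943) and ran from -0.64 to -0.37 with each sample left out. CLDN23 differed by 0.77 (SE 0.38; 0.22 within Cy5, 0.37 with control sample 1 left out). CLDN14 differed by -0.60 (SE 0.31), by -0.26 without sample 4 and by 0.00054 in its brightest row.

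Among proteins close to occludin and F11R, 0 passed. Of the other MARVEL and tricellular proteins 2 of 5 were higher, and of the other JAM-type proteins 5 of 6, beside 10436 of 19148 genes. The JAM-type median was 0.27, or 0.11 with dye as a block. Of these 6 genes 0 were lower in Cy5 than in Cy3, with a median dye difference of 0.26. The part of dye in their direction was not tested. MARVELD2 (tricellulin), which seals the corners where 3 cells meet, read 8.66, 6.27 and 8.96 in the controls and 6.59, 8.16 and 6.35 in samples 4 to 6. The Cy5 samples were all below the Cy3 samples, a dye difference of -2.12 (SE 0.24, limma adjusted p = 0.0466), and the siRNA difference was -0.93 (SE 0.79), or -0.22 with dye as a block. MARVELD3 differed by 0.26 (-0.16 within Cy3, 0.73 within Cy5) and LSR, which recruits tricellulin, by -0.22 (-0.38 within Cy3, 0.14 within Cy5). JAM2 read 9.46, 9.78 and 9.80 against 9.95, 9.96 and 10.21, a difference of 0.35 (SE 0.17) that was 0.32 within Cy3 and 0.29 within Cy5. CXADR, the coxsackievirus and adenovirus receptor, differed by 0.65 (0.18 without control sample 3), and JAM3 by 0.39 (0.19 with dye as a block, 0.18 without sample 4).

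Plaque and polarity genes gave 0 calls as well. Of 17 other plaque genes 9 were higher and 8 lower, with a median of 0.028, and of 10 polarity genes 4 were higher and 6 lower, with a median of -0.060. MAGI2, a membrane-associated guanylate kinase scaffold, read 8.13, 8.57 and 8.32 in the controls and 7.08, 7.21 and 8.07 in samples 4 to 6. Its difference was -0.89 (SE 0.29, limma adjusted p = 0.943), with -1.02 within Cy3 and -1.01 with dye as a block. AMOTL1, an angiomotin family scaffold, differed by -0.80 (SE 0.31; -0.45 without sample 6). YBX3 (ZONAB), a transcription factor held at junctions by TJP1, differed by -0.33 (SE 0.18; -0.19 without sample 5). PARD6A, an adaptor of the PAR polarity complex, read 10.23, 10.00 and 9.93 in the controls and 9.48, 9.28 and 9.69 in samples 4 to 6. Its difference was -0.57 (SE 0.18, limma adjusted p = 0.943). Its paralog PARD6B differed by 0.70 (SE 0.30; 0.042 within Cy3, 1.31 within Cy5), and PARD3B by -0.35 (0.33 in its brightest row).

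Of 9 claudin partners and surface proteases 0 passed, with 4 higher and 5 lower. EPCAM, the partner of CLDN7, read 11.54, 11.15 and 10.89 in the controls and 9.73, 11.22 and 10.81 in samples 4 to 6. Its difference of -0.61 (SE 0.39) rested on sample 4, without which it was -0.18. The membrane protease PRSS8 differed by 0.44 (-0.11 within Cy3, 1.24 within Cy5) and the protease inhibitor SPINT1 by -0.16.

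Of 13 transcription factors known to act on junction genes 0 passed, with 6 higher and 7 lower and a median of -0.014. GRHL1, a grainyhead-like factor of squamous epithelium, differed by -0.65 (SE 0.30; -1.35 within Cy3, -0.18 within Cy5; -0.34 without sample 5). KLF4, a zinc-finger factor of epithelial differentiation, differed by 0.34 (-0.15 within Cy3, 0.44 within Cy5) and OVOL2 by 0.27 (0.036 within Cy5). The 21 genes named from these lists had the smallest p of each list in these data. That choice favours a stable sign and groups that do not overlap. With some 1 sample left out, 16 of them moved by over 1.5 times and 0 changed sign. CLDN18, JAM2, MAGI2, PARD6A and PARD6B did not move by that much. The groups did not overlap for CLDN14, CLDN18, JAM2, CXADR, MAGI2, AMOTL1, YBX3, PARD6A, SPINT1 and GRHL1, and for 9.43% of all genes. Between Cy3 and Cy5, the sign differed for EPCAM, KLF4, LSR, MARVELD2, MARVELD3 and PRSS8. The SNAI and ZEB repressors among the transcription factors are known to bind E-boxes of the form CAGGTG, whose reverse complement is CACCTG. In RefSeq promoters of GRCh38.p14, from 250 bases before to 50 after the start of a gene, this motif on either strand occurred in 3 of 8 junction genes (F11R was not matched), against 20.6% of 27305 promoters. The stretches around it are shown, in the direction of the gene and with the motif in capitals, since these are the letters that such factors would read. They are OCLN at chr5:69492502-69492531 (plus strand), TJP1 at chr15:29969120-29969149 (minus strand) and CLDN3 at chr7:73770221-73770246 (minus strand).
OCLN: ccatccgagtttCAGGTGaattggtcaccg
TJP1: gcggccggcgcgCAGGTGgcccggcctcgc
CLDN3: caaagccacaggCAGGTGcaggcgca
Their differences, 0.53, 0.13 and -0.41, had no sign in common, and a match is a description of the sequence only.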

How the data were processed

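RNA from 6 KYSE30 samples was labelled with a one-colour NimbleGen kit and hybridised to 6 arrays, per the labels' protocols, although the labels name Cy3 or Cy5 by sample. The authors deposited log2 intensities, with column medians of 10.44 to 10.45; how they corrected background, normalised or filtered, and on which build, is not given in the sources used here. A second deposited table held the same values (0 of its values differed), so it gave no alternative. Columns not used numbered 0. No detection calls were used. Precision is limited by the number of arrays.

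Current gene names came from RefSeq (GRCh38.p14, names only) for 33809 rows by accession, 462 by symbol and 206 by an older symbol; 81 rows stayed as deposited. Rows of a gene were averaged. The test was limma 3.58.1 (lmFit, eBayes, two-sided; R 4.3.3), with no filter or covariate and Benjamini-Hochberg adjustment over all genes, or over all rows. Single genes were also tested by exact permutation (scipy 1.17.1). Scripts were tested on simulated data. Levels are mean ± SD over 3 samples.

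The members, lists and alternatives were chosen with earlier results of these data known. Named genes are the 9 members, MTA2, up to 3 per list by smallest p, and for each member the gene above the median level with the highest Pearson r. Alternatives covered normalisation, dim genes, rows, variance, sample weights, dye, thresholds and each sample left out. Figures were drawn with matplotlib 3.10.9.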

Additional observations from a re-analysis of the deposited data

How the results depend on the processing

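The labels state no pairing between control samples and samples labelled MTA2 siRNA, so no paired analysis was run. Over 140 values of the 9 junction genes in the alternatives run, 122 kept the sign of the reported difference, 18 did not, and 0 passed the threshold (limma adjusted p from 0.573 to 1.00). Some of these values could not change sign. A different variance model and a limit to brighter genes left each difference as it was. So did the brightest row for genes with 1 row, and the median of rows for genes with 1 or 2 rows. CLDN1, CLDN3, CLDN7, TJP1 and F11R kept their sign in every alternative. With each sample left out CLDN4 ranged from -0.36 to 0.48, CLDN12 from -0.015 to 0.24 and TJP3 from -0.091 to 0.027. Array weights gave -0.37 for CLDN4 and -0.022 for CLDN12. Within Cy3 the differences were -0.36 for CLDN4, -0.14 for CLDN12 and 0.13 for TJP3. The brightest row gave -0.049 for CLDN12, -0.28 for OCLN and 0.15 for TJP3, and the median of rows -0.10 for CLDN12 and -0.28 for OCLN. OCLN without its row NM_002538, chosen after the data were seen, was -0.32. The cause was not tested. Members called stayed at 0 in every alternative except an unadjusted p of 0.05, which gave 1 gene and 1 row (CLDN1). The number of all genes called went from 0 to 719 at that threshold and to 4 within Cy3, and ranged from 0 to 3 with each sample left out (3 without control sample 2, 1 without sample 6).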
